A study of Mus musculus with 3 samples.

Results

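The Ajuba and zyxin family comprises scaffold proteins that end in a run of LIM domains, zinc-binding modules that dock onto other proteins. Its 6 genes here are Ajuba, Limd1 and Wtip of the Ajuba branch and Zyx, Lpp and Trip6 of the zyxin branch. They are 6 of 19935 genes measured, each read from the probe set that the platform annotation gives to that symbol alone, or from the one with the highest mean where a gene has several. The family was chosen by values of these same arrays, in which the pattern of Ajuba was already known, so all differences from medium and between cultures are given as a description with no test. RNA came from cultures of naive CD4+ T cells, helper T cells that have not met antigen, from wild-type C57BL/6 mice aged 8 weeks. The arrays read the cells after culture, and whether they were still naive was not tested. There was 1 array of cells cultured with the cytokine IL-21, 1 of cells cultured with IL-6 and TGFb1 together (IL-6 plus TGFb1 below), and 1 of cells given vehicle in medium. With 1 array per culture there was no replicate error and no p-value for any difference below. Time in culture, cytokine doses, and whether cells of several animals were pooled are not given in the sources used here.

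Proteins of the family shuttle between sites of adhesion, where they connect to actin filaments and to alpha-catenin, and the nucleus, where they act as cofactors of transcription regulators. The Ajuba branch also binds and restrains the LATS kinases of the Hippo pathway, the kinase cascade that keeps the coactivators YAP and TAZ out of the nucleus. T cells use focal adhesion and actin proteins of this kind at integrin contacts and at the immune synapse.

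Each probe set had a linear intensity, with array medians of 182 with IL-21, 188 with IL-6 plus TGFb1 and 191 with medium. Differences are those of log2(intensity + 1), and both differences from medium subtract the same array. A gene was compared if its highest intensity reached 187, the median of all values, which 5 of the 6 family genes and 11003 genes in all did. All 8 T cell marker genes that were found, among them Cd4, Cd3e and Thy1, had intensities of at least 1710 on every array. Of the markers of other cells, those above 187 on some array were 1 of 2 for CD8 T cells, 1 of 4 for B cells, 0 of 3 for NK cells, 1 of 6 for myeloid cells, 1 of 4 for platelets, 2 of 5 for epithelium, 3 of 6 for fibroblasts and 1 of 4 for endothelium. The summed intensity of the myeloid markers was 651 with IL-21, 638 with IL-6 plus TGFb1 and 637 with medium, and that of the epithelial markers was 793 with IL-21, 846 with IL-6 plus TGFb1 and 927 with medium. Epcam and Cdh1, which define epithelium, were below 187 on all 3 arrays, but the keratin gene Krt8 had 231 with IL-21 and 262 with IL-6 plus TGFb1, against 317 with medium. The B cell gene Cd79a was below 187 as well, whereas Cd79b had 371 with IL-21 and 380 with IL-6 plus TGFb1, against 365 with medium. The summed NK cell markers were 217 with IL-21 and 294 with IL-6 plus TGFb1, against 186 with medium, mostly through Klrd1 (98.1 with IL-21 and 173 with IL-6 plus TGFb1, against 66.0 with medium). Cd8b1, a subunit of the CD8 coreceptor, had 731 with IL-21 and 616 with IL-6 plus TGFb1, against 810 with medium, while Cd8a was below 187 on all 3 arrays. The part of other cell types in the differences was not tested. In RNA from whole cultures, fewer cells with a transcript and less of it per cell cannot be told apart.

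Ajuba, a scaffold of cell junctions that also acts as a corepressor with Snail-type transcription factors, was the family gene that differed most between the cultures. Its intensity was 1272 with IL-21 and 162 with IL-6 plus TGFb1, against 423 with medium. The IL-21 culture was thus the highest and the IL-6 plus TGFb1 culture the lowest, below its array median. Against medium, Ajuba was 3.0-fold higher with IL-21 (a log2 difference of 1.58) and 2.60-fold lower with IL-6 plus TGFb1 (-1.38). With IL-21 it was 7.80-fold higher than with IL-6 plus TGFb1 (2.96). Among the 11003 compared genes its difference ranked 15 from the highest with IL-21 and 20 from the lowest with IL-6 plus TGFb1. In IL-21 minus IL-6 plus TGFb1 it ranked 1 from the highest. The Ajuba value with IL-6 plus TGFb1 lay below the brightness filter, which the gene passed with IL-21 and with medium. The sizes and ranks of the differences that use this dim value, -1.38 and 2.96, are therefore weakly measured. Ajuba had 1 probe set, so no other probe set could be set beside it.

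**Figure D1:**
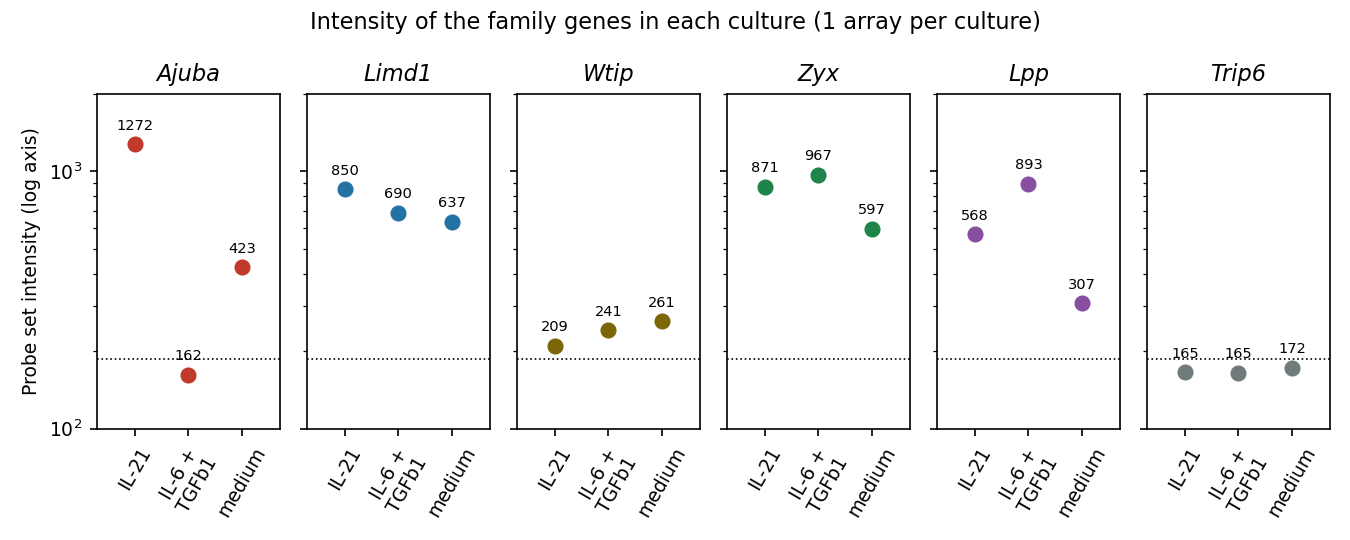
Probe set intensity (log axis) of each family gene on the 3 arrays, 1 point per culture, with the dotted line at the brightness filter of 187. Ajuba is highest with IL-21 (1272) and lowest with IL-6 plus TGFb1 (162), Lpp and Zyx are lowest with medium, and Trip6 lies below the line in all 3 cultures. Levels of different probe sets are not comparable with each other.

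Lpp, a zyxin relative that binds alpha-actinin and Ena/VASP proteins, was higher than medium in both treated cultures. Its brightest probe set had an intensity of 568 with IL-21 and 893 with IL-6 plus TGFb1, against 307 with medium. The log2 differences from medium were 0.89 with IL-21 and 1.54 with IL-6 plus TGFb1, and the difference between the treated cultures was -0.65. Lpp thus ran opposite to Ajuba between the treated cultures, with the higher value in the IL-6 plus TGFb1 culture. The size of this difference depended on the probe set. Another probe set annotated to the RefSeq transcripts of Lpp had intensities of 348 with IL-21 and 418 with IL-6 plus TGFb1, against 266 with medium. Its differences were 0.39 with IL-21 and 0.65 with IL-6 plus TGFb1. The other Lpp probe set, annotated to cDNA clones alone, was dim at 76.1 with IL-21 and at 85.5 with IL-6 plus TGFb1, against 76.3 with medium. All 3 probe sets were highest with IL-6 plus TGFb1, but only the brightest passed 2-fold.

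The Lpp gene also contains Mir28a, a microRNA gene with a probe set of its own. That probe set had an intensity of 47.9 on all 3 arrays, an exact tie in the dim range, so it gave no measure of the microRNA in any culture. The mature arms, from the RefSeq table (GRCm38.p6, plus strand), are shown because the array holds a separate feature for this gene inside Lpp. Capitals mark the seed, bases 2 to 8, and the arms lie at chr16:24827868-24827889 and chr16:24827908-24827929.
miR-28a-5p: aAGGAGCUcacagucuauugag
miR-28a-3p: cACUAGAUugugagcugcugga

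Zyx encodes zyxin, which recruits Ena/VASP proteins to focal adhesions and to strained actin bundles. Its intensity was 871 with IL-21 and 967 with IL-6 plus TGFb1, against 597 with medium. Both treated cultures were above medium, by 0.54 with IL-21 and 0.69 with IL-6 plus TGFb1, and they differed from each other by -0.15. Trip6, a zyxin relative that binds the lysophosphatidic acid receptor LPA2, had intensities of 165.4 with IL-21 and 165.2 with IL-6 plus TGFb1, against 172 with medium. Trip6 lay below the brightness filter on every array, so its differences of -0.06 from medium in each treated culture are poorly measured.

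Limd1, a tumour suppressor that links prolyl hydroxylase and VHL in the degradation of HIF1A, had intensities of 850.3 with IL-21 and 689.5 with IL-6 plus TGFb1, against 637 with medium. The IL-21 culture was the highest, with differences of 0.42 from medium and 0.30 from the IL-6 plus TGFb1 culture, which was 0.11 above medium. Wtip, named for its binding of the Wilms tumour protein WT1, had intensities of 209 with IL-21 and 241 with IL-6 plus TGFb1, against 261 with medium. Both treated cultures were below medium, with differences of -0.32 with IL-21 and -0.11 with IL-6 plus TGFb1. The opposite displacement of Ajuba in the treated cultures was thus not seen in Limd1 or Wtip, which kept one side of medium.

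**Figure D2:**
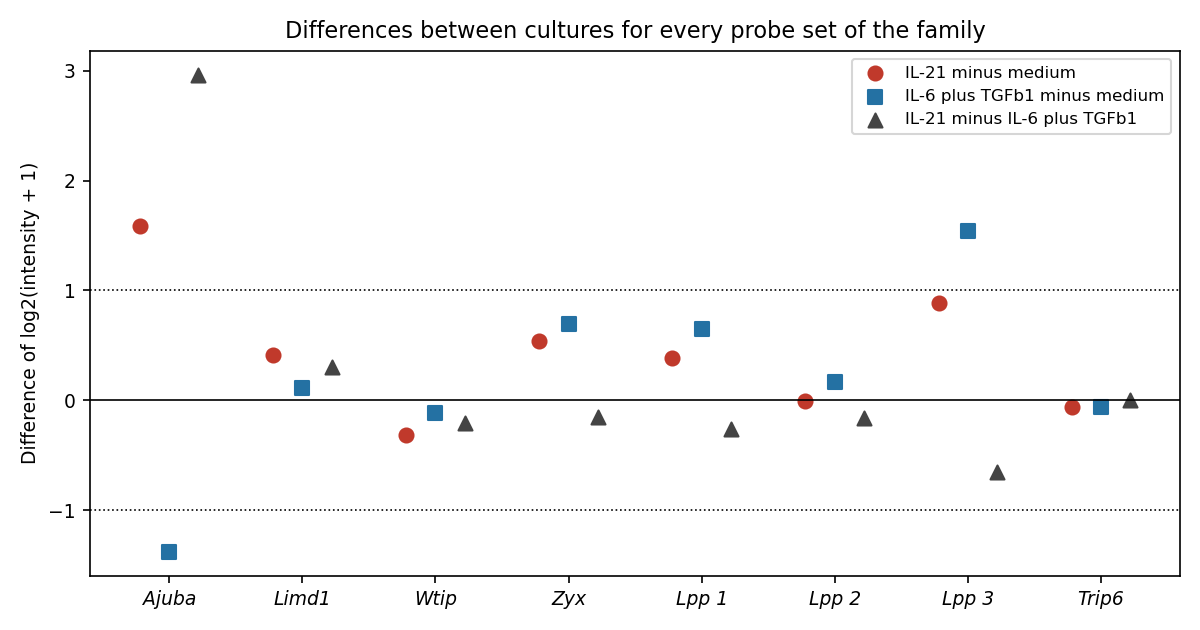
Difference of log2(intensity + 1) for each of the 8 probe sets of the family in the 3 comparisons, with dotted lines at 2-fold; Lpp 1 to 3 are its 3 probe sets, of which Lpp 3 is the brightest. Ajuba lies past 2-fold in all 3 comparisons, on opposite sides of 0 against medium (1.58 with IL-21 but -1.38 with IL-6 plus TGFb1) and at 2.96 between the treated cultures, and the only point of another gene past 2-fold is the brightest Lpp probe set with IL-6 plus TGFb1 (1.54).

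Of the 5 family genes that passed the brightness filter, 1 was at least 2-fold from medium with IL-21 (Ajuba), beside 0.591% of all compared genes. With IL-6 plus TGFb1, 2 of the 5 were (Ajuba and Lpp, or Ajuba alone with the probe sets of a gene averaged), beside 1.04% of all genes, and between the treated cultures 1 was (Ajuba), beside 0.464%. Nothing is read from these counts, since the family was chosen with these contrasts known. The family median was 0.54 with IL-21 and 0.11 with IL-6 plus TGFb1, where that of all compared genes was 0.04 with IL-21 and 0.02 with IL-6 plus TGFb1. The family median with IL-6 plus TGFb1 depended on the setting: it was 0.03 after quantile normalization or with no brightness filter, and 0.40 with the filter at the 75th percentile. Differences depended somewhat on brightness. In the second dimmest of 10 equal groups of genes by brightness, the central 90% of genes lay between -0.35 and 0.41 with IL-21, and Wtip fell within it. In the group that holds Zyx the same range was -0.07 to 0.43 with IL-21 and -0.20 to 0.52 with IL-6 plus TGFb1, and Zyx was above both. In the group that holds Ajuba and Lpp it was -0.23 to 0.52 with IL-21 and -0.21 to 0.57 with IL-6 plus TGFb1, and both genes were outside in each comparison. Limd1 was within its group's range against medium in both treated cultures. Between the treated cultures that range was -0.21 to 0.29, and Limd1, at 0.30, was just above it. Where a gene had 2 bright probe sets, as 474 genes did, the gap between their differences had a 95th percentile of 0.41 with IL-21 and 0.37 with IL-6 plus TGFb1. That gap leaves out the spread between cultures.

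Promoter sequence was available in the RefSeq table (GRCm38.p6) for 5 of the 6 genes. The 250 bases before the start are shown for Ajuba and Lpp, the genes past 2-fold, and for Wtip, whose window held the most motif matches of the family. The Ajuba window is chr14:54577662-54577911 on the minus strand, the Wtip window chr7:34133269-34133518 on the minus strand, and the Lpp window, before the inner of its 2 listed starts, chr16:24721605-24721854 on the plus strand. Capitals mark matches to GGAATG, the core letters bound by TEAD factors, the DNA-binding partners of YAP and TAZ, on either strand (CATTCC on the other), and in Lpp also to TTCNNNGAA, the letters of STAT sites.
Ajuba: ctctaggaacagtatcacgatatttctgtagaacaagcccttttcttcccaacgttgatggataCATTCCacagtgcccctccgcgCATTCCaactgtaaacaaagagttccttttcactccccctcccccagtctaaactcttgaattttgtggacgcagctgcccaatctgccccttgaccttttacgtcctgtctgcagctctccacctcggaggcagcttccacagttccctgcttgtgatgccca
Wtip: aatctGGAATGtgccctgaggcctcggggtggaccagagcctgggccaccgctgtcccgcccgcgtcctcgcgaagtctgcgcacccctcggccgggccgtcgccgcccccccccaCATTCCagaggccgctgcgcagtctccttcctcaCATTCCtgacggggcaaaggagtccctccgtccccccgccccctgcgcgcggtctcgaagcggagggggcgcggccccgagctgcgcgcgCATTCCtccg
Lpp: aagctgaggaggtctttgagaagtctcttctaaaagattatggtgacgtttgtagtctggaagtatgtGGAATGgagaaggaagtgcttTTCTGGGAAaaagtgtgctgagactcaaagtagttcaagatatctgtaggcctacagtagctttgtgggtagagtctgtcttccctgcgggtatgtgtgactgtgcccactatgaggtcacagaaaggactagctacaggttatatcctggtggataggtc

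The TEAD letters occurred 2 times before Ajuba, 4 times before Wtip, and 1 time each before Trip6 and the inner Lpp start. At least 1 match was present in 12.6% of 32851 windows of this length, at least 2 in 1.02% and at least 4 in 0.0122%. The STAT letters were in 7.02% of windows, and among the family they were found before the inner Lpp start alone. The window before the outer Lpp start, which is not shown, held no match to any of the 7 motifs searched. Zyx had 1 match to the AP-1 letters TGANTCA (6.75% of windows), and Trip6 had 1 to the CRE letters TGACGTCA (1.55%). The letters AGATAA of GATA sites (9.99% of windows), GTCTAGAC of SMAD sites (0.167%) and the CArG box of serum response factor (1.47%), searched on both strands as well, were found in none of the 6 windows of the family. Only these full letters were searched, so shorter forms, such as part of the SMAD letters, may be present. A match describes letters only, and whether any of these sites is bound or used in the cultures was not tested. The motifs were chosen after the sequences had been read.

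The genes whose 3 values lay closest to those of Ajuba, by Euclidean distance between log2 values centred on each gene's own mean, were a mixed group. The closest was Akr1c18, a steroid-metabolizing enzyme, at a distance of 0.47, with intensities of 1364 with IL-21 and 248 with IL-6 plus TGFb1, against 703 with medium. It was followed by Gata3, the master transcription factor of Th2 cells (0.63), Pros1, which encodes anticoagulant protein S (0.90), and Il3, a haematopoietic cytokine (0.95). Gata3 had intensities of 2451 with IL-21 and 453 with IL-6 plus TGFb1, against 1513 with medium. Il3 was dim, at 200.2 with IL-21 and at 62.2 with IL-6 plus TGFb1, against 129 with medium, and it passed the brightness filter through the IL-21 array alone. The next were Itih5, of the inter-alpha-trypsin inhibitor heavy chains (1.15), Epas1, which encodes HIF-2 alpha (1.19), the enkephalin precursor gene Penk (1.26) and Ms4a4c (1.27). Penk and Ms4a4c had no higher value with IL-21 than with medium, so the likeness of these 2 rested on the IL-6 plus TGFb1 culture. In that culture Ms4a4c had 130, below the brightness filter, against 437 with IL-21 and 487 with medium, so its likeness is weakly measured. The likeness is over 3 arrays only. The nearest family gene was Limd1, at 1.89, and the farthest was Lpp, at 2.71.

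**Figure D3:**
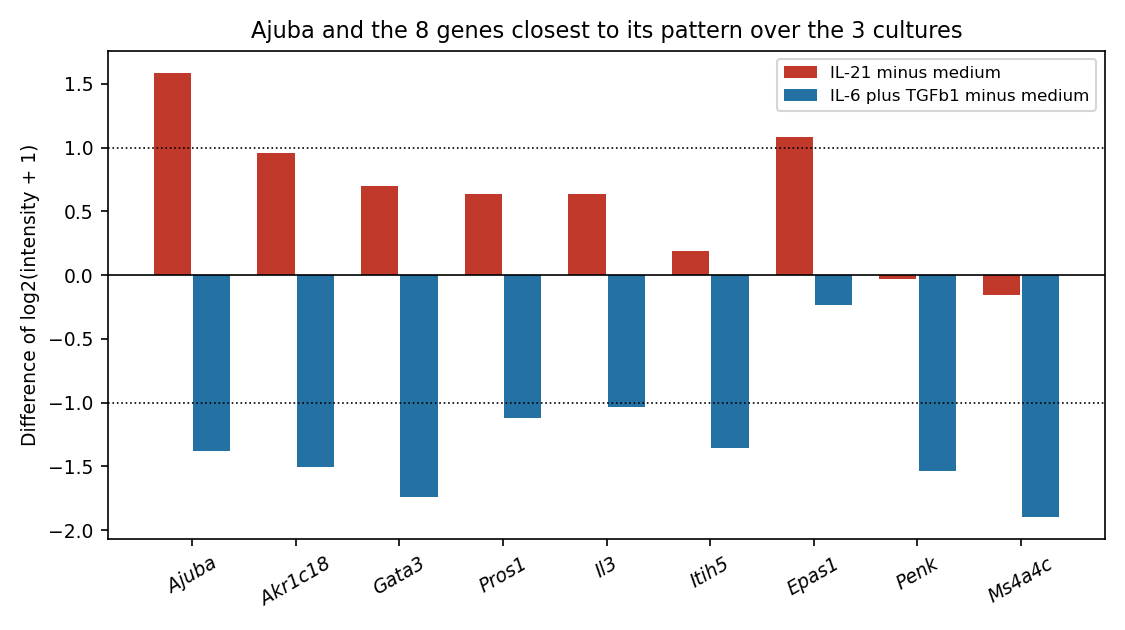
Difference of log2(intensity + 1) of each treated culture from medium, for Ajuba and the 8 compared genes closest to its values over the 3 cultures, ordered by distance, with dotted lines at 2-fold. Ajuba has the tallest IL-21 bar (1.58), Akr1c18 and Gata3 have lower IL-21 bars and deeper IL-6 plus TGFb1 bars (-1.50 for Akr1c18 and -1.74 for Gata3), and Penk and Ms4a4c have no bar above 0. Both bars of a gene subtract the same medium array.

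Among the other LIM domain genes, 36 of the 62 found were compared, and 1 was at least 2-fold higher in each treated culture, beside 0.591% of all compared genes past 2-fold in either direction with IL-21 and 1.04% with IL-6 plus TGFb1. It was Lpxn, which encodes leupaxin, a paxillin relative of blood cells. Its intensity was 2235 with IL-21 and 3166 with IL-6 plus TGFb1, against 871 with medium. Lpxn was thus 1.36 above medium with IL-21 and 1.86 above it with IL-6 plus TGFb1. Lpxn shared with Lpp and Zyx the order of the cultures, highest with IL-6 plus TGFb1 and lowest with medium. Fhl3, a LIM-only cofactor, and Crip1, a small LIM protein, had this order too. The share of all compared genes with this order was not counted. Above medium were 59.8% of them with IL-21 and 56.3% with IL-6 plus TGFb1. With IL-6 plus TGFb1, Fhl3 was 0.63 and Crip1 0.66 above medium. Nebl, of the nebulin family, had 159 with IL-21 and 259 with IL-6 plus TGFb1, against 159 with medium, an exact tie of IL-21 with medium. Nebl passed the brightness filter through the IL-6 plus TGFb1 array alone, where it was highest, so its difference is weakly measured. The median of the list was 0.02 with IL-21 and 0.00 with IL-6 plus TGFb1, without a stable sign: with IL-21 it was -0.02 after quantile normalization. Fblim1, which encodes migfilin, was below the brightness filter on every array.

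Of 21 compared actin and adhesion partners, 14 were above medium with IL-21 and 13 above it with IL-6 plus TGFb1, and none was past 2-fold. Of all compared genes, 59.8% were above medium with IL-21 and 56.3% were with IL-6 plus TGFb1. Past 2-fold from medium in either direction were 0.591% of all compared genes with IL-21 and 1.04% with IL-6 plus TGFb1. Ctnna1, which encodes alpha-catenin, a binding partner of Ajuba and zyxin proteins at junctions, had intensities of 868 with IL-21 and 1140.2 with IL-6 plus TGFb1, against 612 with medium. The differences of Ctnna1 were 0.50 with IL-21 and 0.90 with IL-6 plus TGFb1, in the same order of cultures as Lpp. Tns1, an adhesion protein that binds actin, differed from medium by -0.98 with IL-21 and by -0.21 with IL-6 plus TGFb1. Fermt3, the kindlin that activates integrins in blood cells, was 0.41 above medium with IL-21 and 0.31 above it with IL-6 plus TGFb1, and the kinase gene Ptk2b differed from medium by 0.32 with IL-21 and 0.36 with IL-6 plus TGFb1. The Ena/VASP genes that zyxin and Lpp proteins recruit were close to medium. With IL-21 the difference was 0.02 for each of Vasp, Evl and Enah, and with IL-6 plus TGFb1 it was 0.04 for Vasp, -0.07 for Evl and 0.19 for Enah. The list median was 0.05 with IL-21 and 0.06 with IL-6 plus TGFb1.

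The SRF and MRTF list holds the genes of serum response factor and its actin-sensing coactivators as well as their targets. In this list 11 of 13 compared genes were above medium in each treated culture, and the regulator genes were among the 11. The shares of all compared genes above medium were 59.8% with IL-21 and 56.3% with IL-6 plus TGFb1. The medians of the 10 brightness groups of all compared genes ran between -0.10 and 0.12 with IL-21 and between -0.05 and 0.10 with IL-6 plus TGFb1. The list median was 0.16 with IL-21 and 0.18 with IL-6 plus TGFb1, or 0.10 with IL-21 and 0.12 with IL-6 plus TGFb1 with no brightness filter. The targets that the filter left out lay below medium in both treated cultures. No compared gene of the list was past 2-fold, beside 0.591% of all compared genes with IL-21 and 1.04% with IL-6 plus TGFb1. Flna, the actin crosslinker filamin A, had the largest difference, 0.33 with IL-21 and 0.71 with IL-6 plus TGFb1. Myh9, a nonmuscle myosin heavy chain, differed from medium by 0.16 with IL-21 and 0.35 with IL-6 plus TGFb1, and Tpm4, a tropomyosin, differed from medium by 0.16 with IL-21 and 0.34 with IL-6 plus TGFb1, while Srf itself was 0.28 above medium with IL-21 and 0.21 above it with IL-6 plus TGFb1.

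Among the Hippo pathway genes none of 19 compared was past 2-fold in any comparison. Of all compared genes 0.591% were with IL-21, 1.04% with IL-6 plus TGFb1 and 0.464% between the treated cultures. Nothing is read from a count of none beside shares this low. The list median was 0.06 with IL-21 (-0.02 after quantile normalization) and 0.04 with IL-6 plus TGFb1. The upstream activator gene Nf2, which encodes merlin, differed from medium by 0.42 with IL-21 and 0.40 with IL-6 plus TGFb1. With IL-21, Rassf1 was 0.27 and the kinase gene Taok1 0.12 above medium, and with IL-6 plus TGFb1 they were 0.34 and 0.29 above it. Tead1, a dim TEAD factor gene, was at -0.33 with IL-21 and at -0.13 with IL-6 plus TGFb1. Of 6 compared YAP and TEAD targets, 5 were below medium in each treated culture, and none was past 2-fold, beside the same low shares of all compared genes. Of all compared genes, 28.6% were below medium with IL-21 and 36.6% were with IL-6 plus TGFb1. The list median was -0.20 with IL-21 and -0.15 with IL-6 plus TGFb1, but -0.01 with IL-21 and -0.07 with IL-6 plus TGFb1 with the brightness filter at the 75th percentile. Crim1, a membrane protein that binds BMPs, was at -0.30 with IL-21 and at -0.50 with IL-6 plus TGFb1, and Amotl2, an angiomotin relative, was at -0.33 with IL-21 and at -0.18 with IL-6 plus TGFb1. The kinase gene Nuak2 was at -0.05 with IL-21 and at -0.38 with IL-6 plus TGFb1, while the receptor kinase gene Axl was at 0.27 with IL-21 and at 0.36 with IL-6 plus TGFb1. Several of these targets were dim, with mean intensities in the range of the second dimmest group of compared genes (217 to 285). That group had a median of -0.001 with IL-21 and 0 with IL-6 plus TGFb1. The part of brightness in the target differences was not tested. Between the treated cultures, where Ajuba differed by 2.96, the target list had a median of -0.07, or 0.05 with that stricter filter. Yap1, which encodes YAP, lay below the brightness filter on every array, at 149 with IL-21, 160.5 with IL-6 plus TGFb1 and 159 with medium. Wwtr1, which encodes TAZ, passed it through the medium array alone (192), with 169 in each treated culture. Any link of Ajuba to these targets was not tested.

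LIMD1 takes part in HIF degradation. The list for it holds the HIF genes Hif1a and Epas1 as well as genes that act on HIF proteins. Of its 11 compared genes, 9 were above medium with IL-21 and 8 above it with IL-6 plus TGFb1. The shares of all compared genes were 59.8% with IL-21 and 56.3% with IL-6 plus TGFb1. The list median was 0.16 with IL-21 and 0.12 with IL-6 plus TGFb1. Epas1 was at least 2-fold higher with IL-21 than with medium (1.08) and than with IL-6 plus TGFb1 (1.32). Its intensity was 494 with IL-21 and 198 with IL-6 plus TGFb1, against 233 with medium. Egln3, a prolyl hydroxylase, differed from medium by 0.54 with IL-21 and 0.96 with IL-6 plus TGFb1. With IL-21, Hif1a was 0.38 and Vhl 0.36 above medium, and with IL-6 plus TGFb1 Hif1a was 0.36 and Vhl 0.19 above it. The 13 compared miRNA silencing genes, whose Argonaute proteins bind the Ajuba branch, lay between -0.03 and 0.21 with IL-21 and between -0.11 and 0.30 with IL-6 plus TGFb1. The largest differences from medium were those of Ago3, 0.17 with IL-21 and 0.30 with IL-6 plus TGFb1, Ago2, 0.21 with IL-21 and 0.20 with IL-6 plus TGFb1, Ago1, 0.21 with IL-21 and 0.14 with IL-6 plus TGFb1, and Tnrc6a, 0.18 with IL-21 and 0.09 with IL-6 plus TGFb1. The 26 compared nuclear and signalling partners had a median of 0.03 with IL-21 and 0.01 with IL-6 plus TGFb1 (-0.01 after quantile normalization). None of them was past 2-fold, beside 0.591% of all compared genes with IL-21 and 1.04% with IL-6 plus TGFb1. Ror2, a receptor kinase that binds Wtip, differed by -0.60 with IL-21 and -0.29 with IL-6 plus TGFb1. The nuclear receptor gene Thra differed from medium by 0.18 with IL-21 and 0.35 with IL-6 plus TGFb1, Rara differed from medium by 0.19 with IL-21 and 0.34 with IL-6 plus TGFb1, and the retinoblastoma gene Rb1 differed from medium by 0.23 with IL-21 and 0.30 with IL-6 plus TGFb1.

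**Figure D4:**
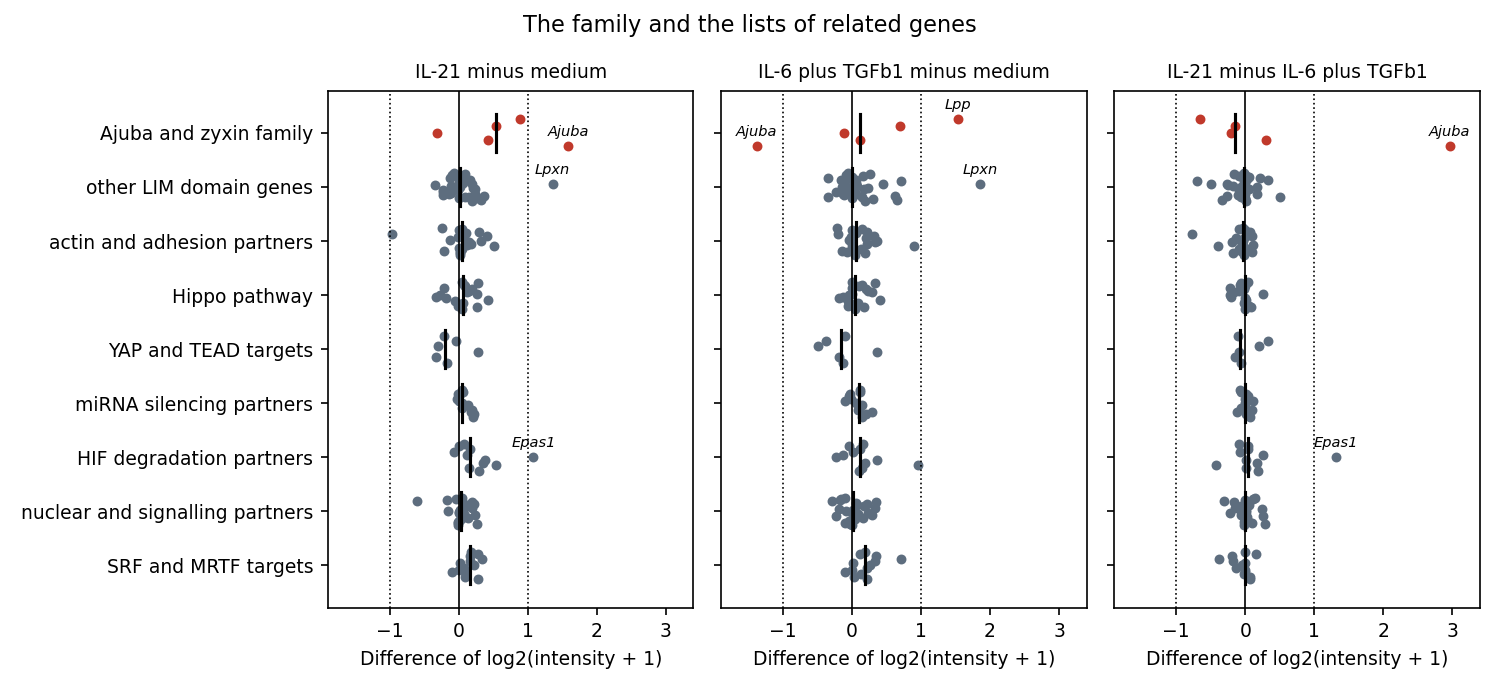
Difference of log2(intensity + 1) for the 5 compared family genes (red) and the compared genes of 8 lists (grey) in the 3 comparisons; black ticks are medians, dotted lines mark 2-fold, and genes past 2-fold are named. Beside Ajuba and Lpp, the only named points are Lpxn (1.36 with IL-21 and 1.86 with IL-6 plus TGFb1, both against medium) and Epas1 (1.08 with IL-21 against medium, and 1.32 between the treated cultures).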

How the data were processed

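RNA was labelled with biotin using an Affymetrix whole-transcript kit and hybridized by a service company, per the labels' protocols. The deposited values were intensities for 28815 probe sets on 3 arrays, linear as read from their range. The genome build was mm8, per the submitters' processing notes; the authors' summarization and normalization are not given in the sources used here. Many values were tied, with 19.1% of probe sets exactly equal between IL-21 and medium.

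Of the probe sets, 21780 had 1 gene symbol, 1605 several and 5430 none listed. Differences were those of log2(intensity + 1) with no further normalization, and 2-fold is a log2 difference of 1. Named genes were the family, up to 4 compared genes of each list with the largest absolute difference, other LIM domain genes past 2-fold, the 8 closest to Ajuba, and cell type markers. A few list genes outside that rule (Vasp, Evl, Enah, Fblim1, Yap1 and Wwtr1) were named for their roles, after their values were seen. The members and lists were chosen with earlier results of these data known. The number of arrays limits precision, and no test was possible. The calculations were tested on simulated data, using Python 3.11.15, numpy 2.4.6 and pandas 2.3.3. Alternatives changed the pseudocount, the treatment of dim values, the normalization, the use of probe sets and the brightness filter.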

Additional observations from a re-analysis of the deposited data

How the results depend on the processing

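Ajuba kept its direction and stayed past 2-fold under the 3 alternatives that could change its value, between 1.48 and 1.65 with IL-21, between -1.45 and -1.30 with IL-6 plus TGFb1, and between 2.85 and 3.01 between the treated cultures. Lpp with IL-6 plus TGFb1 was 0.78, short of 2-fold, when its 3 probe sets were averaged, and 0.42 with IL-21. With the brightness filter at the 75th percentile, which tests fewer genes, 35 genes were past 2-fold with IL-21 (65 in the main setting), 69 with IL-6 plus TGFb1 (114) and 31 between the treated cultures (51). The highest counts under any setting were 80 with IL-21, 118 with IL-6 plus TGFb1 and 52 between the treated cultures. Of the 24 list medians, 9 changed sign under at least 1 of 7 alternatives, and none moved by more than 0.18. No paired analysis was possible because each group had 1 array.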

Other observations

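The following are the genes that flank the 2 family members past 2-fold. Next to Ajuba, Haus4 had intensities of 1199 with IL-21 and 1234 with IL-6 plus TGFb1, against 1199 with medium, and 4931414P19Rik was dim, at 201 with IL-21 and at 166 with IL-6 plus TGFb1, against 143 with medium. Prmt5, which encodes an arginine methyltransferase known to bind Ajuba, is the next gene beyond Haus4, and it differed from medium by -0.01 with IL-21 and -0.11 with IL-6 plus TGFb1. Next to Lpp lies Bcl6, a transcriptional repressor that drives the differentiation of follicular helper T cells. Bcl6 had intensities of 322 with IL-21 and 294 with IL-6 plus TGFb1, against 188 with medium, and was thus above medium in both treated cultures, as Lpp was, but with the IL-21 culture the higher of the 2. The flanking gene on the other side of Lpp, Tprg, was below the brightness filter on every array. These neighbours were named after their values were seen.

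At a lower threshold of 0.5 log2 units in each direction, 5 of 11003 compared genes were above medium with IL-21 and below it with IL-6 plus TGFb1. They were Ajuba, Akr1c18, Gata3, Il3 and Pros1. Of these, Il3 passed the brightness filter through the IL-21 array alone, where it was highest, so its place in this count is weakly measured. The opposite arrangement held for 1 gene, Ccr6, the chemokine receptor of Th17 cells, which was named after its values were seen. Its intensity was 183 with IL-21 and 446 with IL-6 plus TGFb1, against 263 with medium. The IL-21 value of Ccr6 lay below the brightness filter and its difference of -0.52 was close to the threshold, so its place is weakly measured too. Both differences of each gene subtract the same medium array.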
